A study of Mus musculus with 12 samples.

Results

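Voltage-gated calcium channels let calcium into a neuron when its membrane is depolarised, and each channel is built around 1 pore subunit encoded by a gene of the *Cacna1* family. The 8 genes examined were *Cacna1c* and *Cacna1d* (Cav1, L-type current), *Cacna1a*, *Cacna1b* and *Cacna1e* (Cav2, P/Q-, N- and R-type currents) and *Cacna1g*, *Cacna1h* and *Cacna1i* (Cav3, T-type current). Every array probe annotated with 1 of these symbols was taken, which gave 27 of 45281 probes, and 8 of the 19057 genes with a symbol on the array. L-type channels couple synaptic activity to transcription in the nucleus, P/Q- and N-type channels trigger transmitter release at nerve terminals, and T-type channels open near the resting potential and favour burst firing.

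Expression was measured in hippocampi of male C57BL/6J mice aged 12 weeks, 6 of them ethanol-exposed and 6 control, with 1 Illumina MouseWG-6 v2.0 array per mouse. The dams of the exposed mice drank ethanol between 0.5 and 8.5 days after coitum and water thereafter, and control dams drank water. Chip 1 carried mice 1 to 3 of each group, and chip 2 carried mice 4 to 6. The litter of each mouse is not given, so p-values treat the mice as independent.

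Between 18644 and 20268 probes were detected per array (detection p-value under 0.05, the chance that a negative control reaches the signal). Markers of the studied tissue were present, with 3 of the 4 dentate gyrus genes on the array and 6 of 6 genes of CA pyramidal cells passing the detection filter. Choroid plexus RNA was uneven: the summed signal of its markers was high in control 1 (43861), control 3 (38024) and ethanol-exposed 5 (27128) and lay between 726 and 9526 in the other mice. The 6 choroid plexus markers tested were all lower in ethanol-exposed mice (median log2 fold change −0.75), and none passed the adjusted threshold. On chip 1, which held controls 1 and 3, all were lower, and on chip 2 *Clic6* (0.98), *Sostdc1* (0.41), *Kl* (0.20) and *Calml4* (0.09) were higher. In the other 10 marker lists 0 genes passed it either. At an unadjusted p under 0.05 in limma, 3 of 4 ependymal, 2 of 6 astrocyte, 2 of 5 microglial and 1 of 5 oligodendrocyte genes were lower, 1 of 5 neocortical genes was higher (3.08% of all probes were lower and 3.36% higher), and 0 of the dentate gyrus, CA pyramidal, interneuron, thalamic and habenular, and smooth muscle and pericyte genes were called. The part of these cell types in the results on the pore subunits was not tested. In whole hippocampus, fewer cells of a type and less RNA per cell cannot be told apart.

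Few pore subunit probes gave a signal that could be compared between groups. A probe was tested when it was detected on at least 6 of the 12 arrays, and 8 of the 27 probes, for 5 genes, were tested (29.6%, against 42.6% of all probes). Of the other 19 probes, 8 were detected on 1 to 5 arrays and 11 on none. *Cacna1d* (2 of 3 probes), *Cacna1b* (3 of 4), *Cacna1e* (1 of 2), *Cacna1g* (1 of 4) and *Cacna1h* (1 of 3) were tested. *Cacna1c* (0 of 7), *Cacna1a* (0 of 2) and *Cacna1i* (0 of 2) were not, so these arrays give no usable comparison for the main L-type and P/Q-type pores. The tested probes of *Cacna1d*, *Cacna1b* and *Cacna1e* were dim, with mean log2 signals between the 9.8th and 19.5th percentiles of all tested probes. The size of their changes is therefore not well measured. *Cacna1g* (40.6th percentile) and *Cacna1h* (86.5th percentile) were brighter. Probes of 1 gene differed in detection: *Cacna1h* was detected on 12 arrays at ILMN_1246201 (1331 to 2404 signal units before normalisation) and on 0 at ILMN_2431088 (71.8 to 101.9 units) and ILMN_2576053 (90.9 to 135.4 units). A probe that is not detected is not well above background, which does not show that its gene is silent.

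**Figure D1:**
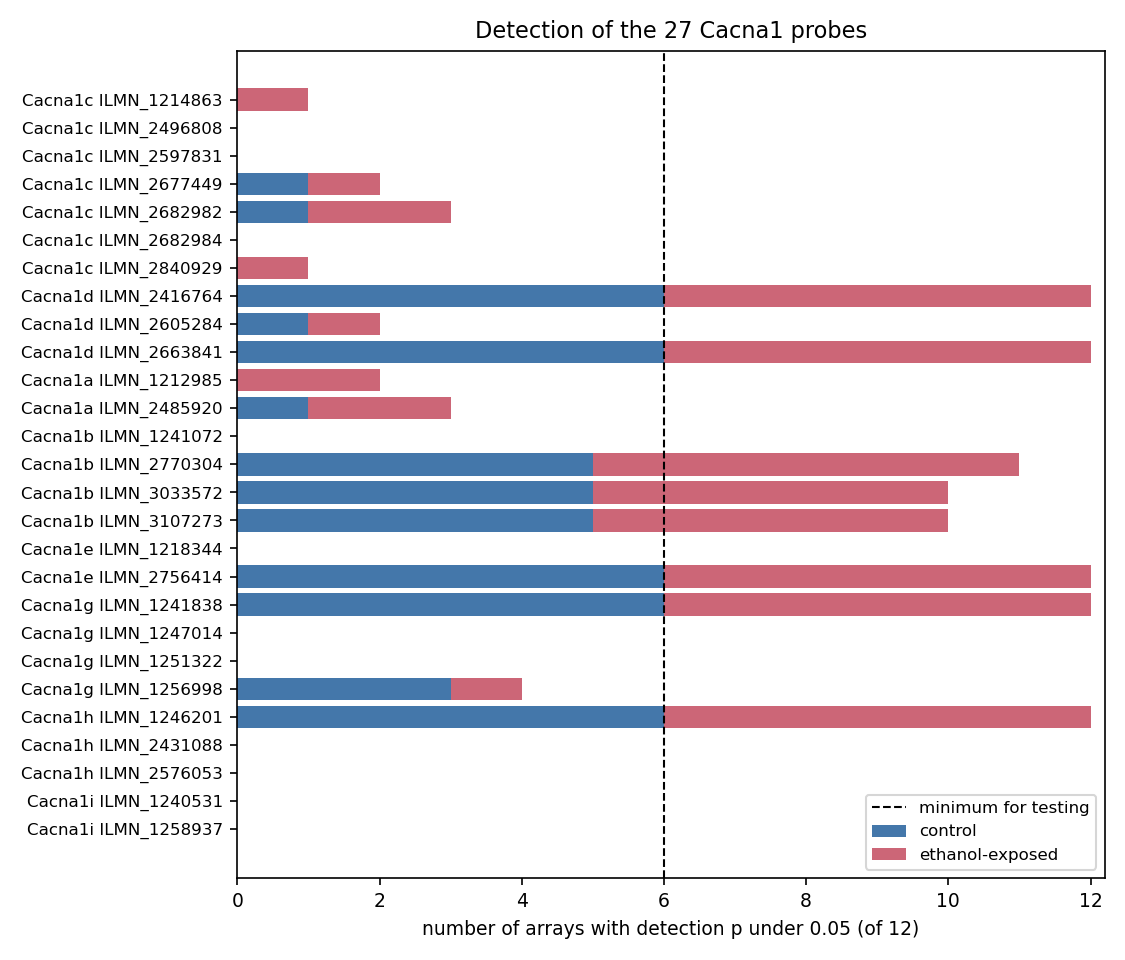
Number of arrays (x axis, of 12) on which each of the 27 *Cacna1* probes (y axis) was detected, with control and ethanol-exposed arrays stacked in 2 colours and the minimum of 6 arrays as a dashed line. Only 8 probes, from 5 genes, reach the line, and 11 were detected on no array.

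No pore subunit passed the adjusted threshold in the comparison of ethanol-exposed with control mice. With limma and Benjamini-Hochberg adjustment over the 19288 probes tested, 0 of the 8 probes had an adjusted p under 0.05 (lowest 0.758), and 0 of all probes did (0% called). At an unadjusted p under 0.05, 1 of the 8 probes was called, against 6.44% of all probes (3.36% higher and 3.08% lower in ethanol-exposed mice). The log2 fold change (ethanol-exposed over control) was negative at 7 probes and positive at 1, with a median of −0.07, and it was negative at 9336 and positive at 9952 of all probes, with a median of 0.0047. The negative values included 3 probes of 1 gene, *Cacna1b*, and very small values at *Cacna1h* (−0.00057) and *Cacna1b* ILMN_2770304 (−0.011). The positive probe belonged to *Cacna1d*, whose other tested probe was negative. These probes therefore give no common direction for the family. The groups overlapped at all 8 probes, as they did at nearly all probes tested (0.264% of all probes had groups that did not overlap).

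**Figure D2:**
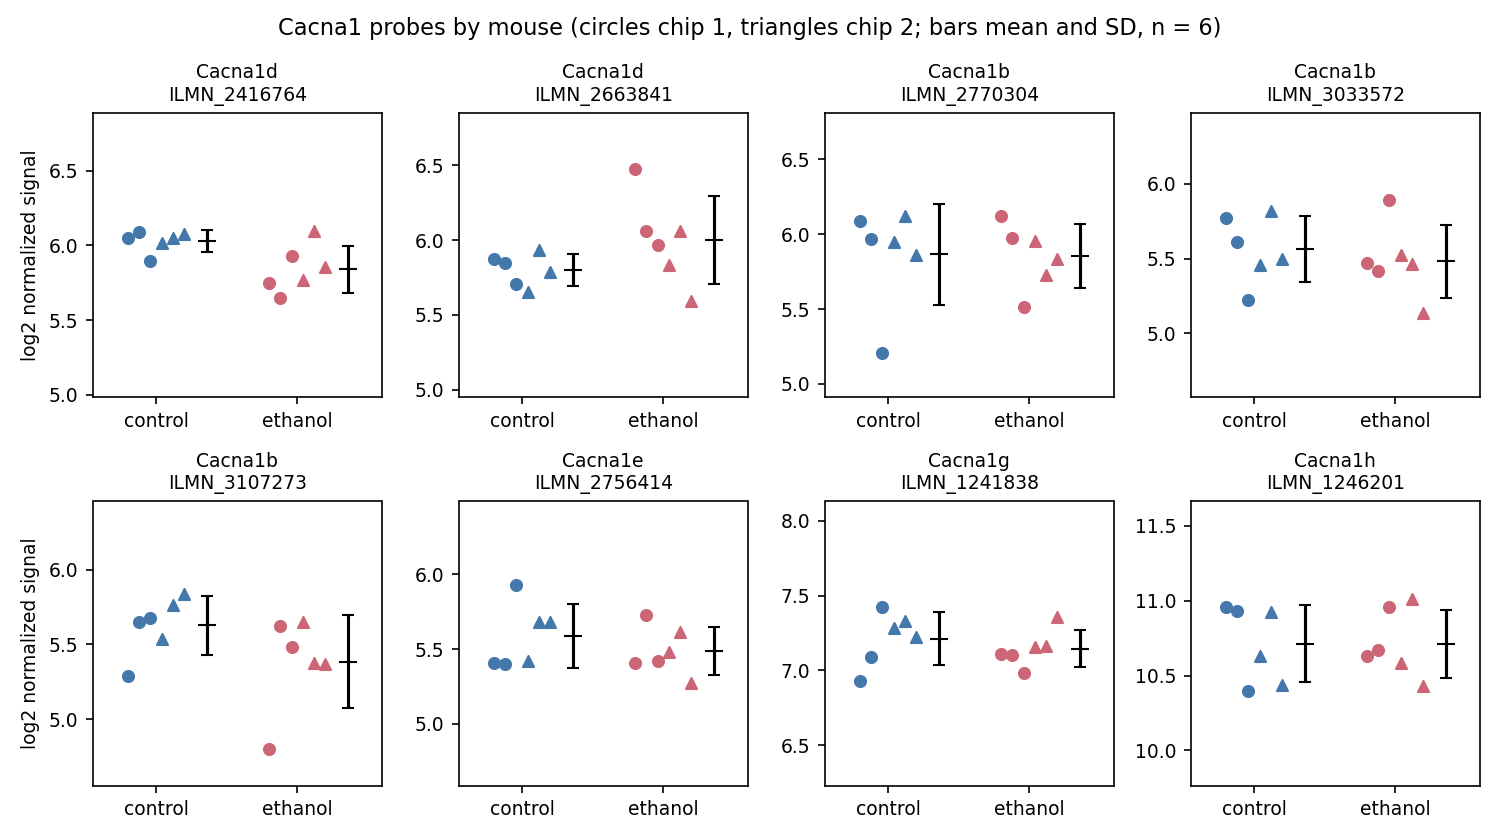
Normalised log2 signal (y axis) of the 8 tested *Cacna1* probes in each mouse, with control and ethanol-exposed mice side by side, circles for chip 1, triangles for chip 2, and the mean and SD (n = 6) as bars; every panel spans the same range of log2 units. The groups overlap in each panel, and *Cacna1h* has nearly the same mean in both groups.

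*Cacna1d*, the pore of the Cav1.3 L-type channel, which opens at less depolarised potentials than Cav1.2, held the single unadjusted call. At ILMN_2416764 the normalised log2 signal in control mice 1 to 6 was 6.05, 6.09, 5.89, 6.02, 6.05 and 6.08. In ethanol-exposed mice 1 to 6 it was 5.75, 5.65, 5.93, 5.77, 6.09 and 5.86. The signal was below the control median in 5 of 6 ethanol-exposed mice, and ethanol-exposed 5 was at the level of the highest control. The means were 5.84 ± 0.16 (SD, n = 6) in ethanol-exposed and 6.03 ± 0.07 (SD, n = 6) in control mice, a log2 fold change of −0.19 (standard error, SE, 0.081, 95% interval −0.36 to −0.01, limma unadjusted p = 0.0357, adjusted p = 0.758). This is a fold of 0.878 (95% interval 0.778 to 0.990). A two-sided exact permutation test over the 924 assignments of mice gave p = 0.0346, where the smallest p possible is 0.00216. The change was −0.24 on chip 1 and −0.14 on chip 2, and it was −0.27 (limma unadjusted p = 0.00947, adjusted p = 0.907) without the 3 arrays high in choroid plexus signal. With no background correction and in the authors' normalised table it was −0.08, and with a larger normexp offset −0.12. Median scaling gave −0.24, and it moved the median of all tested probes from 0.0047 to −0.041. In each of these settings the unadjusted p was above 0.05. It was also above 0.05 without ethanol-exposed 1, 2 or 4, or control 1, 2, 5 or 6.

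The other tested *Cacna1d* probe went the opposite way. At ILMN_2663841 the signal in control mice 1 to 6 was 5.88, 5.84, 5.71, 5.65, 5.93 and 5.79. In ethanol-exposed mice 1 to 6 it was 6.47, 6.06, 5.97, 5.83, 6.06 and 5.59, so that 5 of 6 lay above the control median and ethanol-exposed 6 lay below every control. The probe changed by 0.20 on the log2 scale (SE 0.120, 95% interval −0.06 to 0.46, limma unadjusted p = 0.118, adjusted p = 0.773). Chip 1 alone gave 0.36 and chip 2 alone 0.04, and the value was 0.10 without ethanol-exposed 1. The effects on the 2 probes, which are annotated to the same transcript, differed by −0.39 on the log2 scale (two-sided exact permutation test, p = 0.0130, and 0.0519 after adjustment over the 4 same-gene probe pairs, a test chosen after the values were seen). The files therefore give no single direction for *Cacna1d*. The third *Cacna1d* probe, ILMN_2605284, reached detection on 2 arrays, too few for a test.

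*Cacna1b*, the N-type pore (Cav2.2) of presynaptic terminals, was tested at 3 probes, and all had negative fold changes that did not pass the test. At ILMN_3107273 control mice 1 to 6 had log2 signals of 5.29, 5.65, 5.68, 5.54, 5.76 and 5.84. Ethanol-exposed mice 1 to 6 had 4.80, 5.63, 5.49, 5.65, 5.38 and 5.37, and 6 of 6 were below the control median. This was a change of −0.24 on the log2 scale (SE 0.137, 95% interval −0.54 to 0.05, limma unadjusted p = 0.0982, adjusted p = 0.769, exact permutation p = 0.128), with −0.24 on chip 1 and −0.25 on chip 2. Without ethanol-exposed 1 the change was −0.12. That mouse, the lowest, was not detected at this probe (its deposited detection value, 0.287, is above the limit). Control 1 was not detected at this probe either (deposited detection value 0.0545). ILMN_2770304 had a log2 fold change of −0.01 (95% interval −0.33 to 0.30, adjusted p = 0.991 in limma) and ILMN_3033572 one of −0.08 (95% interval −0.35 to 0.19, adjusted p = 0.920 in limma), and both were positive on chip 1 (0.12 and 0.06) and negative on chip 2 (−0.14 and −0.22). Across the 12 mice the 3 probes followed each other weakly (Pearson r of −0.25, 0.07 and 0.29, Spearman rho of −0.09, 0.12 and 0.35). With the *Cacna1d* pair (r = −0.34, rho = −0.12) these were 4 relations, and their permutation p-values were 0.534 or higher after adjustment.

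*Cacna1e*, the R-type pore (Cav2.3), which is found largely on dendrites and spines, had a median log2 signal of 5.45 (lowest 5.28, highest 5.73) in ethanol-exposed mice at ILMN_2756414, and of 5.55 (5.40 and 5.93) in controls. The groups overlapped over most of their range, with a difference of −0.10 on the log2 scale (SE 0.107, 95% interval −0.33 to 0.13, limma unadjusted p = 0.360, adjusted p = 0.866). This probe was near the detection limit (103.4 to 151 units before normalisation), so the size of the difference is not well measured. *Cacna1a*, the P/Q-type pore (Cav2.1), was at the edge of detection. Its probe ILMN_1212985 was detected on 2 ethanol-exposed arrays and 0 control arrays, with log2 signals of 4.98 to 5.46 in ethanol-exposed mice and 4.67 to 5.05 in controls. The ethanol-exposed mean (5.21) was below the mean over control arrays of the lowest detected signal (5.26), so the probe is not well above background and no difference or fold is given. The other *Cacna1a* probe, ILMN_2485920, was detected on 3 arrays.

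*Cacna1g*, the T-type pore Cav3.1, which drives burst firing in thalamic relay neurons, had a median log2 signal of 7.14 (lowest 6.98, highest 7.36) in ethanol-exposed mice at ILMN_1241838, and of 7.25 (6.93 and 7.43) in controls. The difference in means was −0.07 (SE 0.093, 95% interval −0.27 to 0.13, limma unadjusted p = 0.476, adjusted p = 0.905), and 5 of 6 ethanol-exposed mice were below the control median. A second probe, ILMN_1256998, was detected on 1 ethanol-exposed and 3 control arrays, too few for a test.

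**Figure D3:**
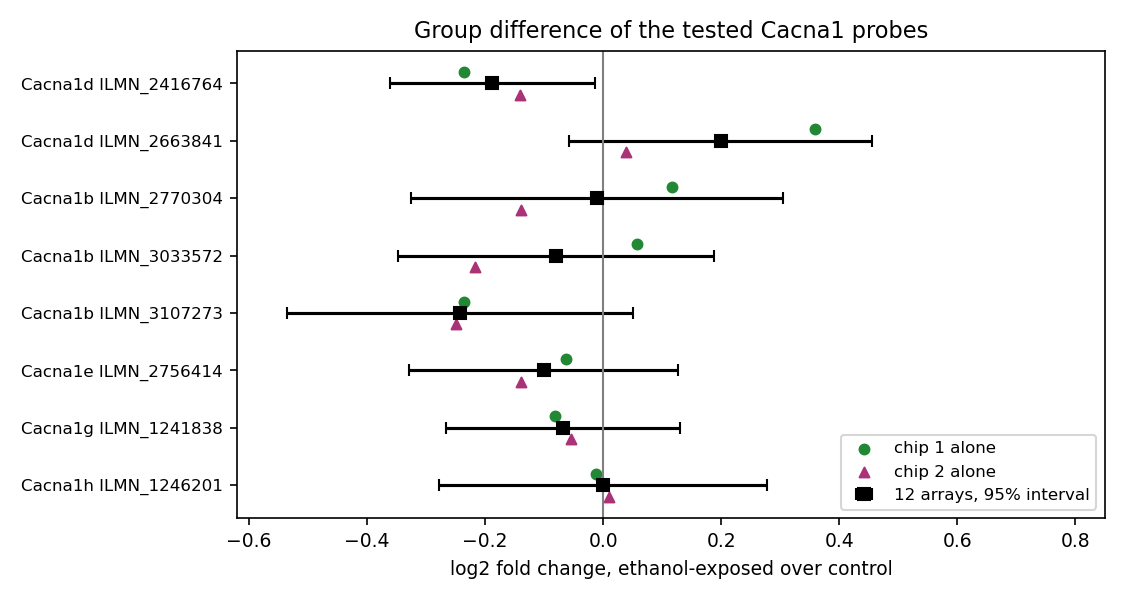
Log2 fold change of ethanol-exposed over control (x axis) at the 8 tested *Cacna1* probes (y axis), with the 95% interval from 12 arrays (squares) and the values within chip 1 (circles) and chip 2 (triangles). Only the interval of *Cacna1d* ILMN_2416764 (−0.36 to −0.01) leaves out 0, and the second *Cacna1d* probe lies on the other side of 0.

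*Cacna1h*, the T-type pore Cav3.2, differed little between the groups and varied between mice within them. At ILMN_1246201 control mice 1 to 6 had log2 signals of 10.96, 10.93, 10.40, 10.63, 10.93 and 10.43. Ethanol-exposed mice 1 to 6 had 10.63, 10.67, 10.96, 10.58, 11.01 and 10.43. Both groups held high mice near 11 and low mice near 10.4, and the means were 10.71 ± 0.23 (SD, n = 6) in ethanol-exposed and 10.71 ± 0.26 (SD, n = 6) in control mice. The log2 fold change had a 95% interval of −0.28 to 0.28 (SE 0.130, limma unadjusted p = 0.997, adjusted p = 0.9995), which bounds the fold between 0.824 and 1.21. The pooled SD of 0.244 was at the 69.7th percentile of all tested probes, and at the 96.4th percentile among the 500 probes nearest to it in signal, a comparison added after the values were seen. The pooled SDs of the 8 probes ran from 0.122 (*Cacna1d* ILMN_2416764) to 0.283 (*Cacna1b* ILMN_2770304). Among the 500 probes nearest in signal, ILMN_2416764 was at the 0.2th percentile and ILMN_2770304 at the 47.6th. The unadjusted call of ILMN_2416764 was thus made at a probe with an unusually small spread for its signal.

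The variation of *Cacna1h* between mice followed that of dentate gyrus markers. In the rodent brain *Cacna1h* is expressed in dentate granule cells. Against the mean log2 signal of *C1ql2*, *Prox1* and *Lct*, Pearson's r over 12 mice was 0.84 (permutation p = 0.0006, adjusted over 22 relations 0.0132) and Spearman's rho was 0.74 (permutation p = 0.00765, adjusted 0.168), so that the rank relation did not pass the adjustment. Without the 2 mice farthest from the median of the markers r was 0.74, and it was 0.81 on chip 1 and 0.88 on chip 2 (6 mice each). For the single markers r was 0.77 (*Lct*), 0.59 (*Prox1*) and 0.42 (*C1ql2*). The marker mean ran from 9.67 to 10.31 in ethanol-exposed mice and from 9.59 to 10.30 in controls, and the part of tissue make-up in the signal of *Cacna1h* was not tested. The 22 relations were those of *Cacna1h* and *Cacna1g* with 11 marker lists each, and the other 21 had adjusted Pearson p-values of 0.236 or higher. *Cacna1g* had an r of −0.59 with the same dentate markers (adjusted permutation p = 0.236).

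**Figure D4:**
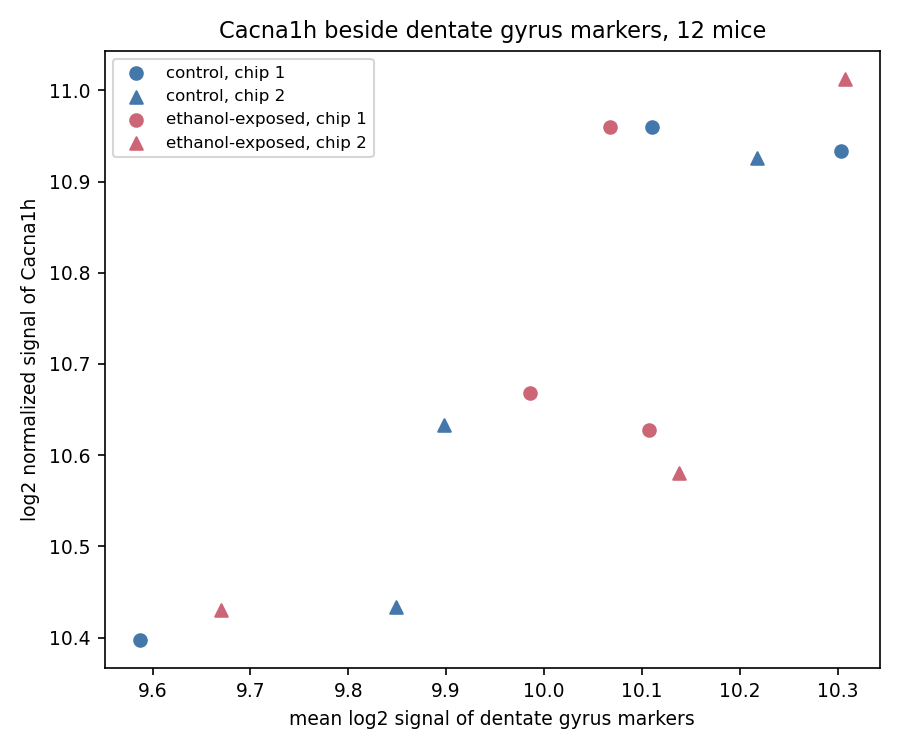
Normalised log2 signal of *Cacna1h* ILMN_1246201 (y axis) against the mean log2 signal of the dentate gyrus markers *C1ql2*, *Prox1* and *Lct* (x axis) in the 12 mice, coloured by group and with circles for chip 1 and triangles for chip 2. Mice of both groups and chips lie along 1 rising band (r = 0.84).

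The genes most like each member within chips and groups, after the mean of each chip and group was taken away from the 12 mice, were found by Pearson's r as a description over all tested named genes. They were *Adgrb2* (0.97), *Rapgefl1* (0.97) and *Dlg3* (0.96) for *Cacna1h*, where *Dlg3* encodes the synaptic scaffold protein SAP102. For *Cacna1g* they were *Dnm1l*, the GTPase of mitochondrial fission (0.96), *Gabra3*, a GABA-A receptor subunit (0.95), and *Tprgl* (0.94). For *Cacna1d* ILMN_2416764 they were *Gng7*, a G protein gamma subunit (0.93), *Hid1* (0.92) and *Lpcat3* (0.91). For *Cacna1b* ILMN_2770304 they were *Tbc1d1* (0.96), *Ntrk2*, the BDNF receptor TrkB (0.96), and *Pcdhac1* (0.95), and for *Cacna1e* they were *Ttc30b* (0.98), *Shprh* (0.96) and *Gprasp1* (0.95). These are the highest of many correlations over 12 mice. With the means left in, r was 0.91 to 0.96 for the 3 genes of *Cacna1h*, 0.81 to 0.85 for those of *Cacna1b*, 0.57 to 0.78 for *Cacna1e*, 0.44 to 0.88 for *Cacna1g* and 0.18 (*Hid1*) to 0.68 for *Cacna1d*.

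The pore subunits work with auxiliary subunits, of which beta subunits carry the pore to the membrane and alpha2delta subunits raise its density at the synapse. The list of auxiliary genes held members of the *Cacna2d*, *Cacnb* and *Cacng* families. Whether each *Cacng* product is part of a calcium channel was not tested. Of 16 auxiliary genes listed, 11 were tested, 0 passed the adjusted threshold, and 1 was higher and 1 lower at an unadjusted p under 0.05, against 3.36% and 3.08% of all probes (list median 0.03 on the log2 scale, against 0.0047 over all probes). *Cacnb4*, the beta4 subunit, had a median log2 signal of 11.07 (lowest 11.02, highest 11.32) in ethanol-exposed mice at ILMN_3123491, and of 10.87 (10.77 and 11.04) in controls. Its log2 fold change was 0.22 (SE 0.078, limma unadjusted p = 0.0135, adjusted p = 0.717), with 0.31 on chip 1 and 0.13 on chip 2, and its other tested probes changed by 0.19 and 0.25. *Cacna2d1*, the alpha2delta-1 subunit that binds gabapentin, had a median log2 signal of 10.67 (lowest 10.31, highest 11.01) in ethanol-exposed mice at ILMN_2752030, and of 10.95 (10.85 and 11.11) in controls. Its log2 fold change was −0.29 (SE 0.113, limma unadjusted p = 0.0244, adjusted p = 0.727), with −0.23 on chip 1 and −0.34 on chip 2, whereas its dimmer probes changed by 0.03 and 0.17. Without the 3 arrays high in choroid plexus signal neither had an unadjusted p under 0.05 in limma, with changes of 0.17 for *Cacnb4* and −0.26 for *Cacna2d1*. The same held for *Cacnb4* under median scaling (0.19) and for *Cacna2d1* without ethanol-exposed 2, 5 or 6 or control 5 (−0.21 to −0.26).

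Among 18 channel regulators and release site partners, 12 were tested, 0 passed the adjusted threshold, and only *Syt1*, the calcium sensor of synaptic vesicles, had an unadjusted p under 0.05, against 6.44% of all probes (list median 0.07). At ILMN_1224963 *Syt1* changed by 0.15 (SE 0.066, limma unadjusted p = 0.0401, adjusted p = 0.759), with 0.21 on chip 1 and 0.09 on chip 2, and its other tested probes changed by 0.12 and −0.10. ILMN_1224963 was the brightest probe of the list, with log2 signals of 14.76 to 14.99 in ethanol-exposed and 14.76 to 14.87 in control mice. The part of signal saturation in its change was not tested. The unadjusted p of ILMN_1224963 stayed under 0.05 in 3 of the 12 fits that left out 1 mouse (without ethanol-exposed 6, control 5 or control 6) and rose above it under median scaling (a change of 0.09). Among 15 genes that carry the calcium signal to the nucleus, 14 were tested, 0 passed the adjusted threshold and 1 was higher at an unadjusted p under 0.05, against 3.36% of all probes (list median 0.12). This was *Nfatc4*, a transcription factor activated by calcineurin, which was detected on 6 arrays. It changed by 0.43 (SE 0.165, limma unadjusted p = 0.0197, adjusted p = 0.717), with 0.77 on chip 1 and 0.10 on chip 2. Its mean log2 signal was 5.44 in ethanol-exposed mice and 5.01 in controls. The control mean was below the mean over control arrays of the lowest detected signal (5.26). The controls were therefore not well above background, and the size of the change is not well measured. The change was 0.19 with no background correction and in the authors' table and 0.23 with the larger offset, and its unadjusted p was just above 0.05 without ethanol-exposed 2 or control 2. The next smallest unadjusted p-values were those of *Creb1* (0.26, adjusted p = 0.759, with an unadjusted p under 0.05 when chip or replicate number was a block), *Camk2a* (−0.15, adjusted p = 0.773) and *Ppp3cb*, a catalytic subunit of calcineurin (0.12, adjusted p = 0.775 in limma).

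**Figure D5:**
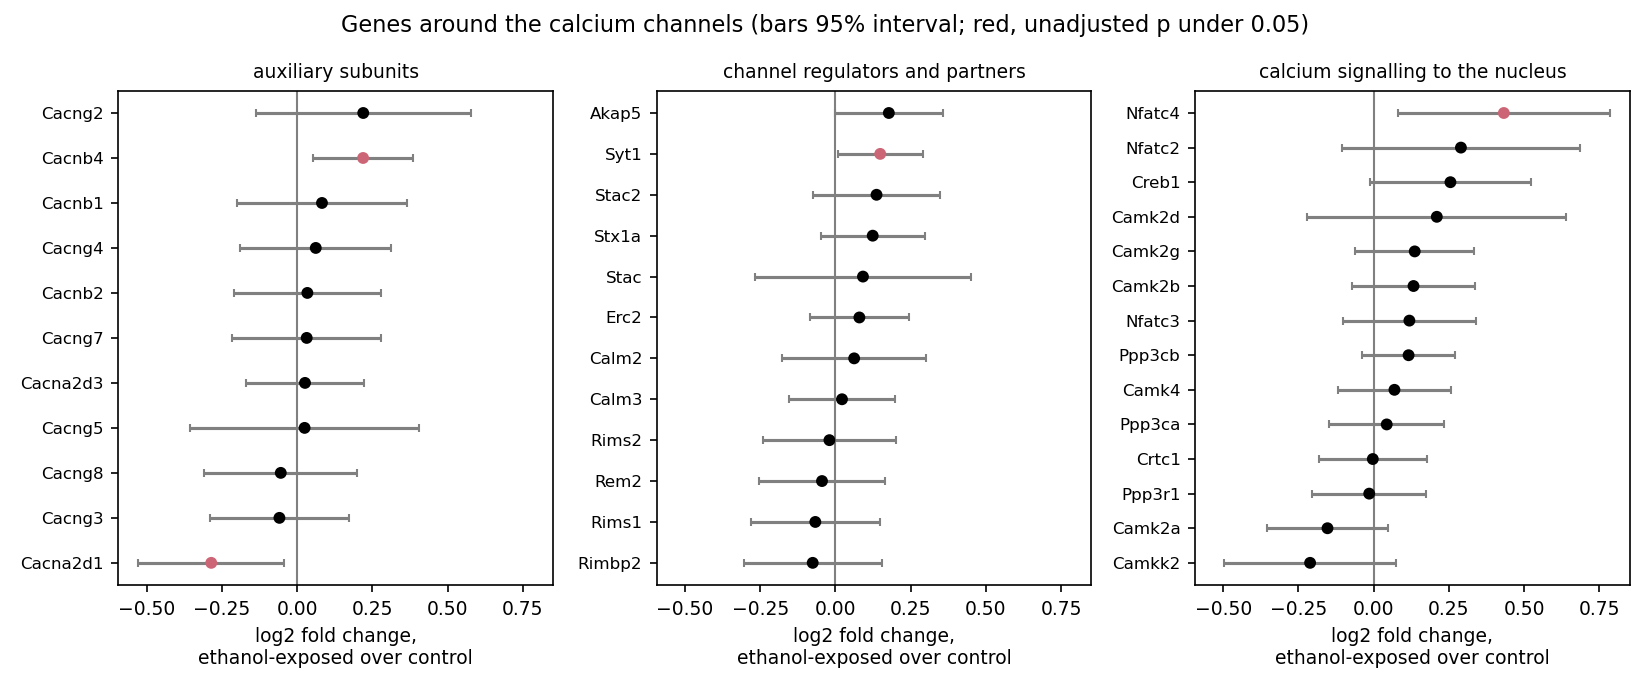
Log2 fold change of ethanol-exposed over control (x axis, with 95% interval) for the brightest tested probe of each gene (y axis) in the lists of auxiliary subunits (11 genes), channel regulators and partners (12 genes) and calcium signalling to the nucleus (14 genes). The red points, *Cacnb4*, *Cacna2d1*, *Syt1* and *Nfatc4*, have an unadjusted p under 0.05, and none passed the adjusted threshold.

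The 2 chips gave no tested difference in the effect of ethanol on a pore subunit. In a limma fit with chip, group and their product, 0 of the 8 probes had an adjusted p under 0.05 (lowest 0.878), as did 0 of all probes (0% called). After quantile normalisation, signals differed between the chips at an adjusted p under 0.05 at 0 of the 8 probes and at 0.446% of all probes. Before normalisation the array medians of the chips did not overlap (chip 1: 111.3 to 127.5 units, chip 2: 94.7 to 102.7 units). Detected probes per array were also fewer for chip 1 (18644 to 19113) than for chip 2 (19492 to 20268). The test on normalised signals does not cover these differences.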

How the data were processed

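The authors hybridised RNA to Illumina MouseWG-6 v2.0 arrays and read them in GenomeStudio 1.9.0. The deposited table before normalisation holds the intensity of each probe on a linear scale, with no background subtraction, and a deposited detection p-value. The authors' second table holds intensity after quantile normalisation, and it lay within 0.956% of quantile-normalised values of the first.

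The intensities were background corrected (normexp, negative controls inferred from detection p-values, offset 16), put on the log2 scale and quantile normalised in limma 3.58.1 under R 4.3.3. The offset compresses fold changes of dim probes. The 19288 probes detected on at least 6 of 12 arrays were fitted on group, with empirical Bayes moderation and Benjamini-Hochberg adjustment at 0.05. Single probes also had two-sided exact permutation tests, and correlations across mice used 100000 permutations. For a gene with several probes the brightest tested probe stood for it. The procedure was tested on simulated data with added changes larger than those of the tested pore subunit probes. That test does not cover changes of the size seen here. Precision is limited by the number of arrays.

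Named genes were the 8 pore subunits, every auxiliary or regulator gene with an unadjusted p under 0.05, the 4 genes of nuclear signalling with the smallest p, and the 3 genes most like each member. Members and lists were chosen with earlier results of these data known. The alternatives were the background correction, the normalisation, the authors' table, the detection filter, the chip and the replicate number as blocks, each chip alone, no moderation and leaving out each mouse. Leaving out 3 arrays high in choroid plexus signal was added after seeing the data. Of the 27 accessions of the pore probes, 23 were found in the RefSeq gene table. No genome build is named for the probes, so no coordinates are given. Probe sequences were not used here.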

Additional observations from a re-analysis of the deposited data

Results flagged for a closer look

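Of 16 sets of 6 mice (8 probes, each group), 3 held a mouse whose gap to the nearest other mouse exceeded Dixon's 95% critical value, and chance alone flags about 1 in 20 sets. At *Cacna1d* ILMN_2416764 control 3 had the lowest log2 signal of its group, 5.89, against 6.02 for the next control. At *Cacna1b* ILMN_2770304 control 3 was at 5.21, against 5.86 for the next control, and was not detected (deposited detection value 0.0630). At *Cacna1b* ILMN_3107273 ethanol-exposed 1 was at 4.80, against 5.37 for the next exposed mouse. Control 3 was also 1 of the 3 mice high in choroid plexus signal (38024), and the part of this in its values was not tested.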

How the results depend on the processing

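Under 24 alternatives, 0 probes of the pore subunits and of the 3 gene lists had an adjusted p under 0.05 in limma, and the lowest adjusted p of a tested pore subunit probe was 0.538. The sign held under all alternatives run for *Cacna1d*, *Cacna1e*, *Cacna1g* and *Cacna1b* ILMN_3107273. It turned for *Cacna1b* ILMN_2770304 (0.12) and ILMN_3033572 (0.057) on chip 1 alone and for *Cacna1h* (0.011) on chip 2 alone. When 1 mouse was left out, ILMN_2770304 ran from −0.14 to 0.058 and *Cacna1h* from −0.064 to 0.056. The cause was not tested.

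The count of pore subunit probes at an unadjusted p under 0.05 in limma, 1 in the comparison as reported, was 0 with no background correction, with an offset of 50, with median scaling, in the authors' table and on chip 2 alone. In these settings 7.02%, 6.63%, 4.06%, 7.02% and 4.74% of all probes were called, against 6.44% as reported. The pore subunit count was 2 with no detection filter, where 5.47% of all probes were called. There the added probe was *Cacna1a* ILMN_1212985, which is not well above background. When 1 mouse was left out the pore subunit count was 0 to 2, and 5.46% to 8.48% of all probes were called. For *Cacna1d* ILMN_2416764 the unadjusted p was under 0.05 in 5 of 12 such fits (0.00748 to 0.0876). In limma it was 0.0934 on chip 1 alone and 0.256 on chip 2 alone. On chip 1 alone the probe under 0.05 was the other *Cacna1d* probe, ILMN_2663841, which went the opposite way (0.36, limma unadjusted p = 0.0488). Of all probes, 8.59% were called on chip 1 alone. Over all probes, 648 were higher and 594 lower. With median scaling the higher count was 147 and the lower 637, and the median log2 fold change of all probes was −0.041 (0.0047 as reported). The higher count was 426 on chip 2 alone, 1301 with no filter (lower 1176), and 535 to 846 when 1 mouse was left out.

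Labels share replicate numbers between groups but do not say that a number marks a litter. Deviations of same-numbered mice correlated at −0.02 to 0.21 (−0.02 to 0.18 within chips), and 2 of 6 were closest to their own number. With so few mice these values cannot settle whether a number marks a litter. The numbers were not taken as pairs in the comparison as reported. With the replicate block 700 probes were higher and 684 lower (7.18% of all probes). Under it 1 pore subunit probe, *Cacna1b* ILMN_3107273 (−0.24), had an unadjusted p under 0.05 in limma (0.0358), while that of *Cacna1d* ILMN_2416764 rose to 0.0593. *Creb1* joined *Nfatc4* under this block (0.0411) and under the chip block (0.0315), and *Syt1* was lost under the replicate block (0.0772).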
